A study of Homo sapiens with 20 samples.

Results

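Messenger RNA of 8 genes of glucose sensing and incretin signalling was measured in human islet-like organoids and in their pancreatic progenitors, with and without the RNA demethylase ALKBH5. The genes were chosen by name and found by their Ensembl identifiers: all 8 were present among 60624 gene identifiers in the organoid tables and 60623 in the progenitor tables. They comprise the glucose transporters SLC2A1, SLC2A2 and SLC2A3, the glucose-6-phosphatase catalytic subunit G6PC2, the zinc transporter SLC30A8, and the receptors GLP1R, GIPR and GCGR.

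All cells of both genotypes came from MEL1 INS GFP/W, a human embryonic stem cell (hESC) line in which 1 copy of the insulin gene carries a green fluorescent protein reporter, so INS levels here are those of reporter cells. The wild type (WT) was compared with an ALKBH5 knockout (A5-KO) made from the same line by CRISPR-Cpf1 editing and colony picking. The labels read A5-KO, which the paper uses for knockout cells in general and for 1 of its 2 knockout lines. All knockout libraries carry that name, so the genotype and the clone cannot be told apart in these data. In other assays the paper reported the PP defect in its other line, A5-KO2, and recovery of A5-KO after wild-type ALKBH5 was restored. Organoids (hILOs, hPSC-derived islet-like organoids) were untreated, with 2 WT and 2 A5-KO libraries. Pancreatic progenitors (PPs) of each genotype received actinomycin D (Act D), an inhibitor of transcription, at 1 µg/ml for 1, 2 or 3 h, and the 0 h libraries were the controls. Each genotype and time had 2 libraries, 16 in all. The paper describes its PP decay curves from RNA-seq as having 2 biological replicates. Nothing in the labels says that the 2 libraries of a group came from separate differentiations. Every p-value therefore measures the spread between these libraries, which may be technical.

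Beta cells take up glucose through transporters of the SLC2A family and phosphorylate it. In islets G6PC2 turns part of the glucose 6-phosphate back into glucose, which raises the glucose level needed for insulin release. SLC30A8 loads insulin granules with zinc. GLP1R and GIPR, the receptors of the gut hormones GLP-1 and GIP, and GCGR, the receptor of glucagon, are related class B receptors that raise cyclic AMP through the stimulatory G protein and so increase glucose-stimulated insulin secretion. ALKBH5 removes methyl groups from N6-methyladenosine (m6A), a mark of mRNA with a short preferred sequence context, and GGACT in DNA letters is a frequent form of it.

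On GRCh38, the genes lie on 8 different chromosomes. SLC2A1 (ENSG00000117394) spans chr1:42925353-42958893 on the minus strand, SLC2A2 (ENSG00000163581) chr3:170996347-171026743 on the minus strand, and SLC2A3 (ENSG00000059804) chr12:7919230-8019007 on the minus strand. G6PC2 (ENSG00000152254) spans chr2:168901291-168910000 and SLC30A8 (ENSG00000164756) lies on chromosome 8, both on the plus strand. GLP1R (ENSG00000112164) spans chr6:39048781-39091303, GIPR (ENSG00000010310) chr19:45668221-45683722 and GCGR (ENSG00000215644) chr17:81804132-81814008, all on the plus strand. SLC2A3 has a close relative, SLC2A14, with which it shares 269 of the 3728 windows of 100 bases in its main transcript (7.22%), so a small share of its reads could be assigned to either gene. No other member shared a window of that length with another gene. SLC2A14 itself was at most 0.0713 TPM in hILOs. In PPs it ranged from 0.84 to 3.15 CPM, highest in an A5-KO library at 2 h, and its log2 difference at 2 h was 0.42 (limma adjusted p = 0.35). The exons of SLC2A1 overlap those of an antisense long noncoding RNA over 497 of 6614 bases, and whether the authors counted by strand is not given in the sources used here.

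The letters GGACT were searched in the sense strand of each member's main transcript, because the deleted enzyme acts on m6A. The m6A level itself was not analysed here. G6PC2 held 6 GGACT sites (1.98 per kilobase), SLC2A3 held 6 (1.57), GIPR 5 (1.51), GCGR 3 (1.48) and SLC2A2 4 (1.26). SLC2A1 held 2 (0.59), SLC30A8 3 (0.55) and GLP1R 3 (0.45). The median over 20046 protein-coding transcripts was 0.92 sites per kilobase, and 87.8% of them held at least 1 site, so that 5 of the members lay above the median density and 3 below it. Sites of SLC2A3 (5 of its 6) and SLC2A1 (both), the 2 members whose levels passed the test between genotypes in hILOs, are shown with 10 bases on either side, 5′ to 3′ as DNA letters of the transcribed strand, with GGACT in capitals. Of the sites printed, the first 4 of SLC2A3 and the first of SLC2A1 lie in the coding sequence, and the last of each lies in the 3′ untranslated region.

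SLC2A3, coding, chr12:7932998-7933022, minus strand: cttttccgtcGGACTcttcgtcaac
SLC2A3, coding, chr12:7931416-7931440, minus strand: ctgctttatgGGACTgtgtaaagta
SLC2A3, coding, chr12:7931347-7931371, minus strand: cctcttctgcGGACTctgcacaggt
SLC2A3, coding, chr12:7921523-7921547, minus strand: acccgtggcaGGACTtttgaggata
SLC2A3, 3′ untranslated, chr12:7920007-7920031, minus strand: tgccctcaggGGACTtgaatctttc
SLC2A1, coding, chr1:42930010-42930034, minus strand: tgttcggcctGGACTccatcatggg
SLC2A1, 3′ untranslated, chr1:42926869-42926893, minus strand: agaatattcaGGACTtaacggctcc

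The authors gave hILO levels as TPM, which scales a gene's reads by transcript length and by library size. PP levels were given as CPM, reads of a gene over all reads of the library, which are not divided by length. The TPM values keep no depth, whereas the CPM values gave back whole reads, between 30516384 and 35206514 per PP library. ALKBH5 mRNA was at 78.8 and 81.9 TPM in WT against 4.16 and 3.42 TPM with A5-KO, and it was also lower in every A5-KO PP library than in any WT PP library at the same time. The hILOs expressed the endocrine hormones, with INS, the insulin gene, at 13005 ± 39.0 TPM in WT (SD, n = 2), but hepatocyte markers were abundant too: the summed TPM of 9 such genes was 13061 to 13391 in WT. The endothelial markers summed to at most 0.52 TPM in hILOs. The 2 WT libraries at 2 h differed in their pancreatic progenitor markers (6 genes, summed CPM 196 and 366). Values of the members at 2 h are therefore also given with 1 library left out where a call rests on it. For the other genes called at 2 h, among them VIPR1 and DPP4, no such values are given.

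In WT hILOs, SLC2A1 had the highest level of the 8 genes and GCGR the lowest. SLC2A1 stood at 290 ± 2.33 TPM (SD, n = 2), above 97.8% of 19895 protein-coding genes, and SLC30A8 at 157 ± 32.8 TPM, above 95.4% of them. SLC2A2 followed at 29.0 ± 2.48 TPM, SLC2A3 at 11.3 ± 0.511 TPM and GLP1R at 8.44 ± 0.690 TPM. GIPR at 4.40 ± 0.361 TPM and G6PC2 at 3.95 ± 0.631 TPM overlapped and could not be placed in order. GCGR was at 1.18 ± 0.523 TPM. In A5-KO hILOs the first 3 ranks were held by SLC2A1, SLC30A8 and SLC2A2 again, and G6PC2, GIPR, GLP1R and SLC2A3 followed with each one's range overlapping the next.

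**Figure D1:**
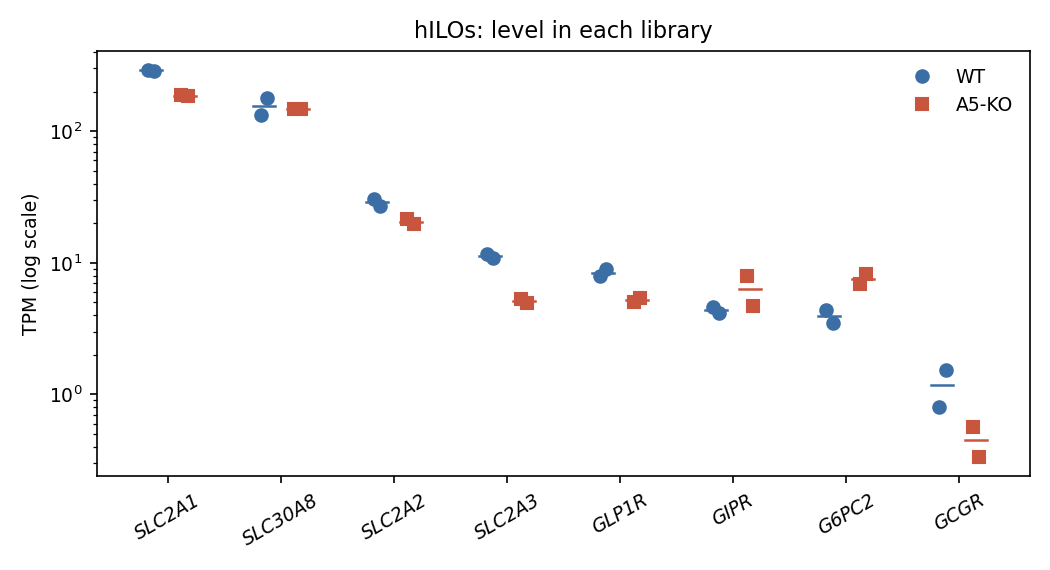
Level of the 8 genes in each hILO library, in TPM on a log scale, with WT as circles, A5-KO as squares and a short line at the mean of the 2 libraries. The SLC2A1, SLC2A2, SLC2A3 and GLP1R points of A5-KO lie below those of WT, the G6PC2 points lie above, and the SLC30A8 points of A5-KO (148 and 148 TPM) lie between those of WT (133 and 180 TPM).

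The first comparison asked which of these mRNAs differed between WT and A5-KO organoids. The transporters SLC2A1 and SLC2A3 were lower in A5-KO hILOs, and no member was called higher. Called here means an adjusted p (Benjamini-Hochberg) under 0.05 together with more than 1.5-fold change, from limma on log2(TPM + 1) over the 17300 genes whose mean reached 1 TPM. The added 1 shrinks the change of weakly expressed genes. Of the 7 members tested, 2 were called lower, where 4.09% of all tested genes were called lower and 2.7% higher. An unadjusted limma p under 0.05 was seen for 5 of the 7 and for 30.9% of all tested genes. Of these members SLC2A1, SLC2A2, SLC2A3 and GLP1R were lower in A5-KO and G6PC2 was higher. GCGR fell below the filter. In bulk RNA, fewer cells of a type and less RNA per cell cannot be told apart, which holds for every difference given here.

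SLC2A1, the widely expressed transporter that is the main one of human islets, was at 291 and 288 TPM in WT against 187 and 184 TPM with A5-KO. The groups did not overlap, as for 61.4% of all tested genes in hILOs, and the log2 difference of A5-KO from WT was -0.64 (standard error 0.03, limma adjusted p = 0.0042). With median-of-ratios scaling the difference was -0.57, just under the 1.5-fold limit, and SLC2A1 was then not called although its adjusted p was 0.0045. SLC2A3, a transporter of high glucose affinity best known from neurons, was at 11.6 and 10.9 TPM in WT against 5.29 and 4.92 TPM with A5-KO. Its log2 difference was -1.005 (standard error 0.12, limma adjusted p = 0.017). Leaving out any one of the 4 libraries kept the difference between -1.05 and -0.96 but took the adjusted p to between 0.073 and 0.10, so the call needed all 4 libraries, and with weakly expressed genes kept in the fit the adjusted p was 0.059.

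SLC2A2, the low-affinity transporter of rodent beta cells and of hepatocytes, was at 30.8 and 27.3 TPM in WT against 21.4 and 19.6 TPM with A5-KO. The libraries did not overlap, and the log2 difference of -0.48 (standard error 0.10) missed the threshold with a limma adjusted p of 0.051. Hepatocyte markers went with neither direction alone in hILOs: 3 of 9 were called higher (ALB, APOA2 and TF) and 2 lower (FGB and AHSG), and their summed TPM was 17208 to 17551 in A5-KO against 13061 to 13391 in WT. Beta cell markers summed to 8104 to 8116 TPM in A5-KO and 13454 to 13520 TPM in WT, a sum made up almost wholly of INS, which was the only one of the 6 tested beta cell markers called (log2 difference -0.77, limma adjusted p = 0.0021). Their part in the differences of the transporters was not tested.

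G6PC2, the islet phosphatase, was at 4.40 and 3.51 TPM in WT against 6.87 and 8.25 TPM with A5-KO. Both A5-KO libraries were above both WT libraries, by 0.79 on the log2 scale (standard error 0.17), and the adjusted p of 0.060 from limma missed the threshold. Its relative G6PC1, the phosphatase of liver and kidney, lay in the list of glucose 6-phosphate handling genes and was lower: 14.5 and 13.1 TPM in WT against 3.03 and 3.44 TPM with A5-KO, a log2 difference of -1.81 (standard error 0.13, limma adjusted p = 0.0071). Within a library G6PC2 was thus the lower of the 2 genes in both WT libraries and the higher in both A5-KO libraries.

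The sequence before the start of G6PC2 is shown because it is the islet-restricted member and because it alone of the 6 members in the promoter table held any of the letters searched. The 250 bases before its annotated start (RefSeq, GRCh38.p14, chr2:168901041-168901290, plus strand) are printed with CAGATG in capitals, the minus-strand reading of CATCTG, an E-box form that NEUROD1 is known to bind, at -84 to -79 from the start.

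G6PC2 promoter: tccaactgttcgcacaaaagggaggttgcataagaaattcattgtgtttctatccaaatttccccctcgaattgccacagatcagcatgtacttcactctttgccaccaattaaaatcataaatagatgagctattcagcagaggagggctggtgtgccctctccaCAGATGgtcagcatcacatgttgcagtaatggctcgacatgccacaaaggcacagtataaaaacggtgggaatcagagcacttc

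Windows of 300 bases, from 250 before to 50 after the start, were searched on both strands, and 14.7% of 35116 promoters in the table held CATCTG. None of the 6 members held ACGTG (the core of the hypoxia response element), TAATGA (a homeodomain core), GTTAAT (part of the HNF1 site), TGACGTCA (the cyclic AMP response element) or CACGTG (an E-box that contains ACGTG), which 21.4%, 8.76%, 6.88%, 1.85% and 7.26% of promoters held. The window of G6PC2 had a GC content of 43.3% and that of SLC2A2 49.0%, below the median of 58.7%, whereas those of SLC2A1 (71.0%), GIPR (65.0%), GLP1R (75.3%) and GCGR (77.3%) were above it. NEUROD1 mRNA was itself called higher in A5-KO hILOs, by 0.75 on the log2 scale (limma adjusted p = 0.0028). Whether that bears on G6PC2 was not tested.

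SLC30A8, the granule zinc transporter, was at 133 and 180 TPM in WT against 148 and 148 TPM with A5-KO. The A5-KO values lay between those of WT, and the log2 difference was -0.06 (standard error 0.15, limma adjusted p = 0.81). None of the other 7 SLC30 zinc exporters tested of 9 listed was called in hILOs by limma, 3 of them having an unadjusted p under 0.05 (30.9% of all tested genes did), with a median log2 difference of 0.18 against -0.06 over all tested genes. The pan-endocrine markers behaved unevenly, with 2 of 7 called higher (SCG2 and NEUROD1) and 1 lower (PTPRN), and their summed TPM overlapped between the genotypes (20566 to 22921 in WT and 20380 to 21639 in A5-KO).

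GLP1R was at 7.95 and 8.93 TPM in WT against 5.05 and 5.39 TPM with A5-KO. Both A5-KO libraries were below both WT libraries, and the log2 difference of -0.60 (standard error 0.13) had a limma adjusted p of 0.058. GIPR was at 4.65 and 4.14 TPM in WT against 7.95 and 4.72 TPM with A5-KO. One A5-KO library was near the WT level, and the log2 difference was 0.41 (standard error 0.26, limma adjusted p = 0.36). GCGR was at 0.81 and 1.54 TPM in WT against 0.56 and 0.34 TPM with A5-KO, too low for the test. Without that higher A5-KO library, replicate 1, the GIPR difference was 0.087, and no receptor difference was called in hILOs.

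Below the receptors, GNAS, which encodes the alpha subunit of the stimulatory G protein, was the one gene called among 20 tested signalling genes. It was at 1636 and 1587 TPM in WT against 774 and 693 TPM with A5-KO, a log2 difference of -1.14 (standard error 0.06, limma adjusted p = 0.0044). Of the ligands and their processing enzymes, 1 of 5 was called: GCG, the precursor of glucagon and GLP-1, was at 2192 and 2270 TPM in WT against 1267 and 1266 TPM with A5-KO (log2 difference -0.82, standard error 0.03, limma adjusted p = 0.0024). The alpha cell markers that include GCG summed to 2865 to 2961 TPM in WT and 2068 to 2105 TPM in A5-KO, and 2 of 6 were called lower (GCG and IRX2). VIPR1, a class B receptor for vasoactive intestinal peptide, was higher in A5-KO, at 29.6 and 31.4 TPM against 15.9 and 13.4 TPM (log2 difference 1.02, limma adjusted p = 0.015), the one call among 2 tested relatives of the glucagon receptor family.

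**Figure D2:**
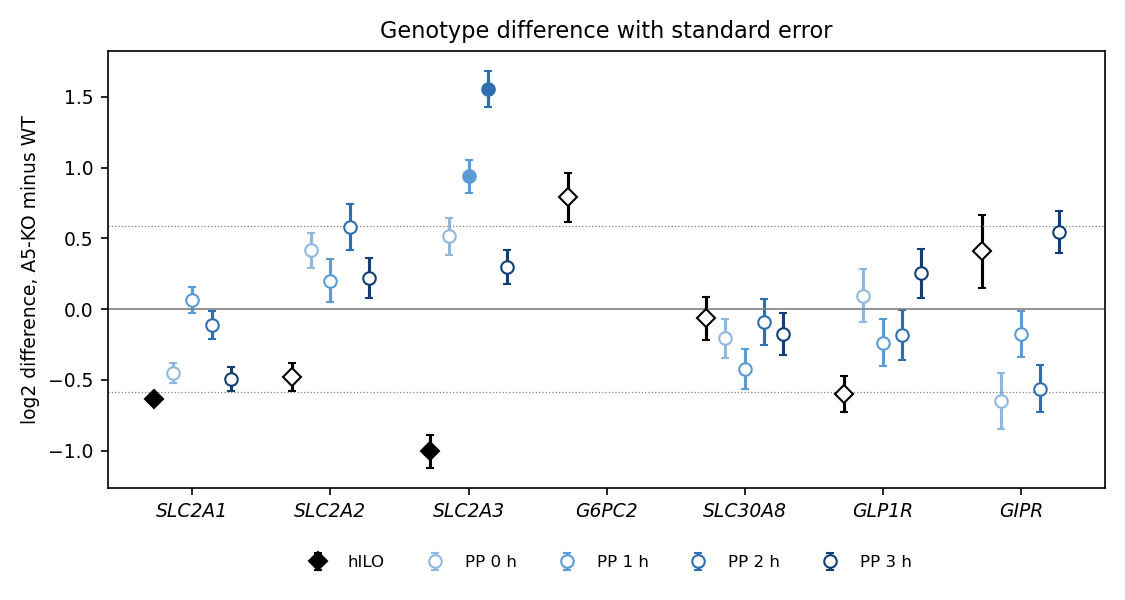
Log2 difference of A5-KO from WT for the 7 members that could be tested, in hILOs (black diamonds) and in PPs at 0, 1, 2 and 3 h of Act D (circles, light to dark blue), with standard errors as bars, dotted lines at 1.5-fold and filled symbols for calls. SLC2A3 is at -1.005 in hILOs and above 0 at each time in PPs, and G6PC2 has a value in hILOs alone.

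Uptake and trapping of glucose was described further with 2 lists of other genes. Of 10 tested glucose transporters, 1 was called in hILOs: SLC5A9, a sodium-coupled carrier of mannose and glucose, was at 15.5 and 16.03 TPM in WT against 34.5 and 32.5 TPM with A5-KO, a log2 difference of 1.04 (limma adjusted p = 0.0071). Of 15 tested genes of glucose 6-phosphate handling, 4 were called lower and none higher, with a median log2 difference of -0.25. These were G6PC1, the hexokinases HK1 (-1.31) and HK2 (-1.02), which phosphorylate glucose, and PFKP (-1.32), a platelet-type phosphofructokinase. HK1 was at 18.8 and 20.9 TPM in WT against 6.80 and 8.02 TPM with A5-KO.

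SLC2A1 and SLC2A3 are also known as targets of the hypoxia-inducible factors, and other genes of that kind were lower in A5-KO hILOs too. Of 13 listed hypoxia-induced genes, 8 were called lower and none higher, with a median log2 difference of -0.86 against -0.06 over all tested genes. P4HA1, a collagen prolyl hydroxylase subunit, was at 108 and 113 TPM in WT against 46.1 and 48.9 TPM with A5-KO (log2 difference -1.20, limma adjusted p = 0.0036). ENO1, a glycolytic enolase, was at 2011 and 1970 TPM in WT against 1047 and 1009 TPM with A5-KO (-0.95, limma adjusted p = 0.0021). The others called were CA9, ANKRD37, PGK1, ALDOA, BNIP3 and NDRG1. The 5 not called were LDHA (-1.97) and PDK1 (-1.45), both with a limma adjusted p of 0.071, and VEGFA, ADM and EGLN3, whose changes were under 1.5-fold. Summed over the 13 genes, the level was 5015 to 5052 TPM in WT and 2569 to 2685 TPM in A5-KO. Its part in the differences of SLC2A1 and SLC2A3 was not tested.

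**Figure D3:**
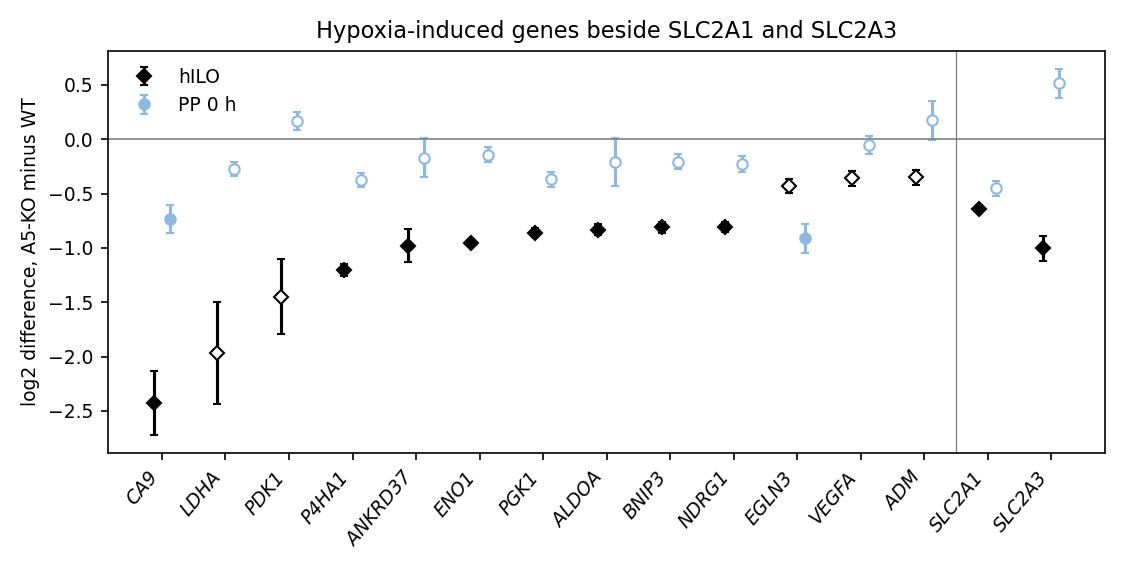
Log2 difference of A5-KO from WT with its standard error for 13 hypoxia-induced genes and, right of the line, for SLC2A1 and SLC2A3, in hILOs (black diamonds) and PPs at 0 h (blue circles), with calls filled. All hILO points lie below 0, and SLC2A3 in PPs is at 0.51.

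In PPs at 0 h, 6 of the 8 genes were well above the limit of detection. G6PC2 had 0 reads in all 16 PP libraries, which allows up to 0.0983 CPM in the library with the fewest reads (3 reads, counting error only). GCGR had between 0 and 14 reads, with a median of 0.15 CPM, and was at 0 in 2 libraries. INS was at 0 CPM in all 4 libraries at 0 h. Per kilobase of exon, SLC2A1 was the highest in WT at 48.0 ± 0.714 CPM per kilobase (SD, n = 2), followed by SLC2A2 at 5.14 ± 0.488 and SLC30A8 at 2.26 ± 0.0725. SLC2A3 at 2.00 ± 0.226 and GIPR at 1.96 ± 0.576 CPM per kilobase overlapped, and GLP1R was at 1.105 ± 0.202.

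SLC30A8 held a lower place among the genes of PPs than among those of hILOs. It was above 57.4% of protein-coding genes in WT PPs and above 95.4% in WT hILOs, whereas SLC2A1 was above 96.8% and 97.8%. The units and tables differ between the stages, so these places are a description and no test was made between stages.

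The second comparison was between genotypes in untreated PPs. No member was called at 0 h, by limma on log2(CPM + 1) with the 13911 genes that have a mean CPM of at least 1, where 1.13% of genes were called lower and 1.57% higher. SLC2A1 passed the p threshold without the 1.5-fold change: it was at 314 and 321 CPM in WT and at 229 and 236 CPM in A5-KO, a log2 difference of -0.45 (standard error 0.07, limma adjusted p = 0.0062). SLC2A1 was lower in A5-KO at both stages, without overlap of the libraries at either. In either direction, libraries did not overlap for 49.8% of all tested genes in PPs at 0 h and for 61.4% in hILOs. How many of all genes were lower in A5-KO at both stages was not counted. An unadjusted p under 0.05 was seen for 4 of the 6 tested members (SLC2A1, SLC2A2, SLC2A3 and GIPR) and for 19.3% of all tested genes. Beyond limma, edgeR on the recovered reads called none, and DESeq2 called 1, GIPR. With the replicate number as a block, limma called GIPR too.

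SLC2A2 and SLC2A3 were higher in A5-KO PPs, short of the threshold. SLC2A2 was at 18.7 and 16.4 CPM in WT and at 23.6 and 23.7 CPM in A5-KO (log2 difference 0.42, standard error 0.12, limma adjusted p = 0.11). SLC2A3 was at 15.6 and 13.3 CPM in WT and at 20.7 and 21.4 CPM in A5-KO (0.51, standard error 0.13, limma adjusted p = 0.065). For both genes the A5-KO libraries lay above those of WT, the opposite of hILOs. SLC2A2 is also a gene of hepatocytes, and 4 of 8 tested hepatocyte markers were called higher in A5-KO PPs (ALB, AFP, APOB and FGB). The summed CPM of the 9 listed markers was 1920 to 1960 in A5-KO against 1148 to 1208 in WT. Most of that gap was AFP, at 1343 and 1294 CPM in A5-KO against 563 and 551 CPM in WT. SERPINA1, the next highest, lay the other way, at 200 and 268 CPM in A5-KO against 311 and 371 CPM in WT. The part of the hepatocyte markers in the SLC2A2 difference was not tested.

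SLC30A8 was at 14.5 and 13.9 CPM in WT PPs and at 12.7 and 11.7 CPM in A5-KO PPs, a log2 difference of -0.21 (standard error 0.14, limma adjusted p = 0.45). GLP1R was at 6.43 and 8.33 CPM in WT and at 9.12 and 6.82 CPM in A5-KO, with overlapping libraries and a log2 difference of 0.10 (standard error 0.19, limma adjusted p = 0.83). GIPR was at 7.87 and 12.0 CPM in WT and at 5.56 and 6.15 CPM in A5-KO (-0.65, standard error 0.20, limma adjusted p = 0.11). The GIPR value depended on the WT library: without WT replicate 1 the difference was -0.92 with a limma adjusted p of 0.033 and GIPR was called, and without WT replicate 2 it was -0.37 with a limma adjusted p of 0.61. DPP4, the protease that inactivates both incretins, was the one tested gene of the ligand list and was called higher, at 121 and 112 CPM in A5-KO against 76.8 and 73.3 CPM in WT (0.62, standard error 0.08, limma adjusted p = 0.0034).

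Few genes of the other pathway lists were called at 0 h. None of 14 tested genes of glucose 6-phosphate handling, 7 zinc exporters and 21 signalling genes was called by limma, edgeR or DESeq2. At an unadjusted p under 0.05 limma gave 3, 2 and 4 of them. Of 10 tested glucose transporters, SLC2A5, the fructose carrier, was called higher by limma with a log2 difference of 0.92 (adjusted p = 0.042) and by DESeq2, but not by edgeR (adjusted p = 0.051), a gene named after its value was seen. Of the 13 hypoxia-induced genes, EGLN3 (-0.91) and CA9 (-0.73) were called lower, with a median of -0.21 against 0.03 over all tested genes, and the summed CPM was 5873 to 6137 in A5-KO against 6793 to 7095 in WT.

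The third comparison followed the same genes after transcription was stopped with Act D. CPM is relative to the library's total, so a gene that is lost more slowly than the average mRNA rises on this scale. SLC2A3 had the largest genotype difference of the members at 1 and 2 h. At 1 h it was at 14.4 and 14.8 CPM in WT and at 28.9 and 28.9 CPM in A5-KO, a log2 difference of 0.94 (standard error 0.12, limma adjusted p = 0.00078). At 2 h it was at 15.8 and 15.4 CPM in WT and at 45.0 and 50.7 CPM in A5-KO, a difference of 1.56 (standard error 0.13, limma adjusted p = 0.0045). At 3 h it was at 21.7 and 21.6 CPM in WT and at 28.3 and 25.5 CPM in A5-KO, and the difference of 0.30 (standard error 0.12, limma adjusted p = 0.094) was no longer called.

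The A5-KO values of SLC2A3 were thus highest at 2 h, and those of WT at 3 h. It was the 1 member called at 1 h, where 3.19% of tested genes were called higher, and the 1 member called at 2 h, where 1.08% were. Leaving out A5-KO replicate 2 at 2 h gave a difference of 1.47 with a limma adjusted p of 0.076, so the 2 h call rested on that library too, whereas every library could be left out at 1 h. Over libraries, 430 to 1548 reads lay behind each SLC2A3 value.

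A contrast added after these values were seen tested whether the genotype difference at each time differed from that at 0 h, in one limma fit of all 16 PP libraries over 13620 genes. For SLC2A3 the genotype difference grew by 1.04 on the log2 scale from 0 h to 2 h (standard error 0.16, limma adjusted p = 0.0034), in a contrast in which 0.749% of genes were called higher. It remained called with any one library of 0 h or 2 h left out (0.94 to 1.15, limma adjusted p 0.0015 to 0.044). From 0 h to 1 h no member was called by limma (2 of 6 at an unadjusted p under 0.05, as had 8.99% of all genes), with 0.22% of genes called in either direction. SLC2A1, which was at 270 and 272 CPM in WT and 306 and 263 CPM in A5-KO at 1 h, had a change of 0.52 (standard error 0.13, limma adjusted p = 0.19) in that contrast. All contrasts of this kind share the 0 h libraries.

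**Figure D4:**
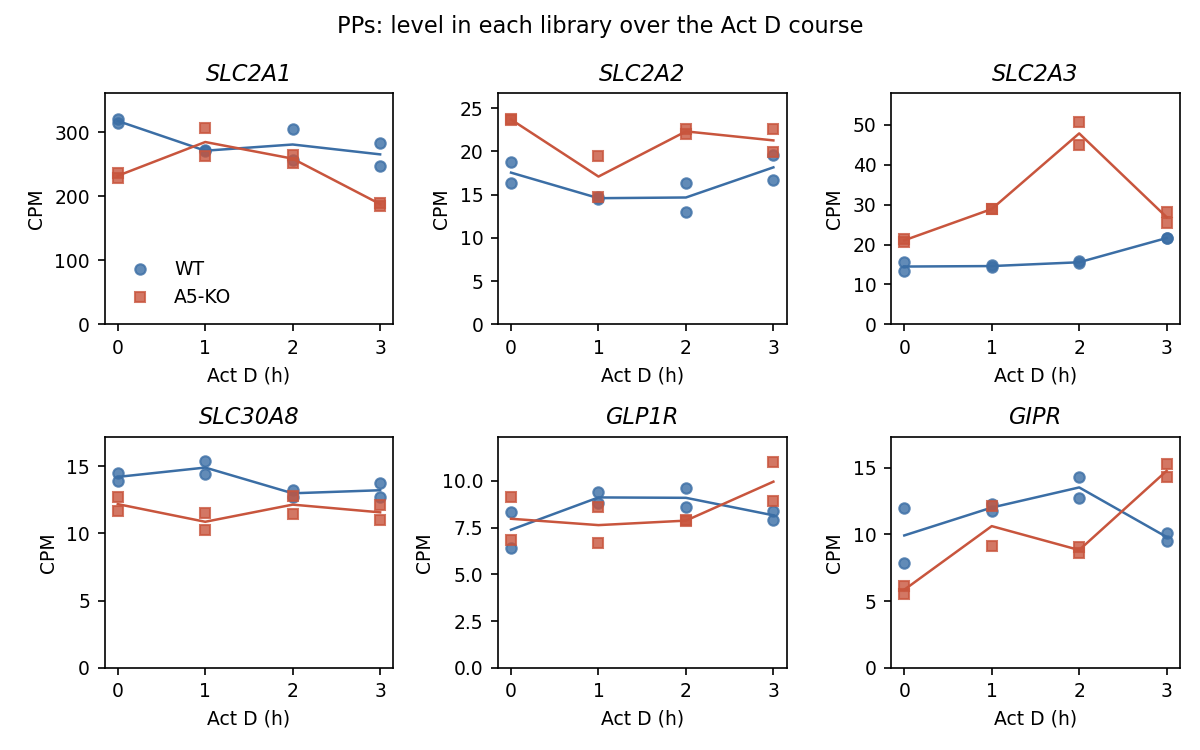
CPM of the 6 members detected in PPs against hours of Act D, with WT as circles, A5-KO as squares, 1 symbol per library and lines through the means of 2 libraries. SLC2A3 in A5-KO peaks at 2 h (45.0 and 50.7 CPM), and the GIPR lines cross between 2 and 3 h.

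GIPR turned from lower to higher in A5-KO PPs along the course. At 1 h it was at 12.3 and 11.7 CPM in WT and at 12.1 and 9.12 CPM in A5-KO, with overlapping libraries. At 2 h the values were 14.3 and 12.7 CPM in WT and 9.05 and 8.62 CPM in A5-KO (log2 difference -0.56, standard error 0.17, limma adjusted p = 0.15). At 3 h they were 10.1 and 9.54 CPM in WT and 15.3 and 14.3 CPM in A5-KO (0.54, standard error 0.15, limma adjusted p = 0.023), with A5-KO above WT but the change under 1.5-fold. With median-of-ratios scaling the 3 h difference was 0.68 and with edgeR 0.73, and both called it, and at 2 h GIPR was called without WT replicate 2 (-0.64, limma adjusted p = 0.014).

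In the added contrast the GIPR difference changed by 1.19 on the log2 scale from 0 h to 3 h (standard error 0.25, limma adjusted p = 0.0053). There 98 of 13620 genes (0.72%) were called higher and 1918 lower. The change stayed called with each library of 0 h or 3 h left out (0.92 to 1.47, limma adjusted p 0.0033 to 0.043). With the decay slope, a straight line over the 4 times of log2(CPM + 0.1), GIPR rose by 0.37 per hour in A5-KO (standard error 0.09, limma adjusted p = 0.0027) and by 0.02 per hour in WT. The difference in slope of 0.35 per hour (standard error 0.12, limma adjusted p = 0.11) was not called. No member was called for its slope, by limma, where 2.67% of 13620 genes were, and GIPR alone of the 6 had an unadjusted p below 0.05, against 22.4% of all genes. The slope differences of the other 5 lay between -0.03 and 0.06 per hour.

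The genotype difference of SLC2A1 lay nearer to 0 at 1 and 2 h than at 0 and 3 h. Its log2 difference was 0.07 at 1 h (limma adjusted p = 0.69), -0.11 at 2 h (limma adjusted p = 0.52) and -0.49 at 3 h (standard error 0.08, limma adjusted p = 0.0028), when it was at 284 and 247 CPM in WT and 190 and 185 CPM in A5-KO. The 3 h difference was under 1.5-fold, and it reached -0.59 and was called without WT replicate 2. No member was called at 3 h by limma (3 of 6 at an unadjusted p under 0.05 against 39.5% of all genes, and 1, GIPR, by edgeR), where 17.7% of all tested genes were called in either direction, 2234 of them lower and 144 higher. With median-of-ratios scaling that split was 1655 lower and 353 higher, and the median of all tested genes moved from -0.12 to 0.01. Among them were all 5 tested pancreatic progenitor markers, whose summed CPM was 77.0 to 80.1 in A5-KO and 289 to 305 in WT. Whether this bears on the members at 3 h was not tested.

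SLC2A2 was above WT in A5-KO PPs at 2 h, at 22.0 and 22.6 CPM against 12.9 and 16.4 CPM (log2 difference 0.58, standard error 0.16, limma adjusted p = 0.14). The call depended on the scaling: with median-of-ratios scaling the difference was 0.68 and with edgeR on the recovered reads 0.71, and both called it (adjusted p 0.046 and 0.043), as did limma without WT replicate 2 (0.74, adjusted p = 0.0017). At 1 and 3 h the differences were 0.20 and 0.22, with limma adjusted p of 0.43 and 0.28. SLC30A8 ranged from 10.2 to 15.4 CPM over the 16 libraries with a median of 12.7, and its largest difference was -0.42 at 1 h (standard error 0.14, limma adjusted p = 0.086). GLP1R ranged from 6.43 to 10.99 CPM with a median of 8.49, and its differences at 1, 2 and 3 h were -0.24, -0.18 and 0.25 with limma adjusted p of 0.40, 0.55 and 0.31.

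Among the listed neighbours of the members during Act D, VIPR1 was higher in A5-KO at 1 h (15.1 and 13.9 CPM against 5.26 and 5.30, log2 difference 1.30, limma adjusted p = 0.00041) and at 2 h (1.29, limma adjusted p = 0.016). DPP4 was higher at 1 h (0.59) and 2 h (0.81), with limma adjusted p of 0.0054 and 0.016. SLC2A5 was also called higher at 1 h (1.73, limma adjusted p = 0.00050), as was PRKAR1B, a regulatory subunit of protein kinase A (0.84, limma adjusted p = 0.0020). At 3 h the calls by limma were lower: SLC30A1, the plasma membrane zinc exporter, was at 9.12 and 7.75 CPM in A5-KO against 27.4 and 36.3 CPM in WT (-1.79, limma adjusted p = 0.00024). CREB1, the transcription factor that protein kinase A activates (-0.91), PDE4D, a cyclic AMP phosphodiesterase (-1.21), and PFKFB3, which makes the activator of phosphofructokinase (-0.80), were called lower at 3 h as well. By limma no other gene of the glucose transporter, zinc exporter, receptor, ligand, signalling and glucose 6-phosphate lists was called at these times. Of the 13 hypoxia-induced genes, CA9 was called higher in A5-KO at 1 h (0.64, limma adjusted p = 0.024). EGLN3 was called lower at 3 h (-1.37, limma adjusted p = 0.00067), and none was called at 2 h. The summed CPM of the 13 genes overlapped between genotypes at 1 h. That sum was 7538 to 7556 in A5-KO against 6890 to 7059 in WT at 2 h, and 6520 to 6671 against 6901 to 7033 at 3 h. ENO1, its largest part, was at 4051 and 4022 CPM in A5-KO against 3598 and 3651 CPM in WT at 2 h. The median log2 difference of the 13 genes was 0.01 at 2 h, against -0.10 over all tested genes. At 3 h it was -0.14, against -0.12 over all tested genes. On the recovered reads edgeR also called SLC2A5 (1.61) and the sodium-coupled glucose transporter SLC5A1 (1.99) higher at 2 h, and ADCY3 (0.65), PRKACA (0.59) and DPP4 (0.63) higher at 3 h, and it did not call DPP4 at 1 h (0.56).

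Each member's course over the 16 PP libraries was compared with those of 8894 genes with a mean CPM of at least 10, as a description over libraries that share genotype, time and scaling. For each gene the 3 with the highest Pearson correlation of log2(CPM + 1) are named. SLC2A1 was closest to PFKFB4, a hypoxia-induced regulator of glycolysis (r = 0.94), ATOSB (0.92) and BAIAP2L1 (0.92). SLC2A2 was closest to APOB, the apolipoprotein of the hepatocyte list (0.90), ATP8B1 (0.90) and ST8SIA3 (0.89), and SLC2A3 to the tetraspanin CD9 (0.97), ITM2B (0.97) and CEACAM6 (0.97). SLC30A8 was closest to FLT1, a receptor of vascular endothelial growth factor (0.94), EPHA3 (0.94) and CCDC88A (0.92). GLP1R was closest to LARS1 (0.85), FADS1 (0.84) and AHI1 (0.83), the lowest correlations of the 6 members, and GIPR to CPAMD8 (0.94), RGL3 (0.93) and B3GALNT2 (0.92).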

How the data were processed

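RNA-seq of hILOs (4 libraries) and PPs (16 libraries) from the MEL1 INS GFP/W hESC line was analysed from the gene tables. Per the study's methods and the submitters' processing notes, reads were trimmed with fastp and aligned to hg38 with HISAT2 2.1.0. For hILOs the authors deposited TPM from StringTie. For PPs the authors deposited CPM computed after removal of the ERCC spike-in reads. The counter behind the CPM, the annotation release and the strand setting are not given in the sources used here. TPM depends on the gene models used for length, and CPM after spike-in removal shows a level relative to all other mRNA rather than an absolute amount.

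CPM steps gave back whole reads, within 0.05 of a whole number, for 100% of values above 0, and counting floors cover counting error only. Levels were tested with limma 3.58.1 (R 4.3.3) on log2(value + 1), with an empirical Bayes trend, on genes with a mean of at least 1. Slopes were fitted to log2(CPM + 0.1) over all 16 PP libraries and called on the adjusted p alone. The study's own choice, DESeq2, needs counts, so edgeR 4.0.16 and DESeq2 1.42.0 were run on the recovered reads as alternatives, and the scripts were tested on simulated data. At 0, 1, 2 and 3 h limma called 375, 593, 179 and 2378 genes, and edgeR 433, 680, 334 and 2142. Levels were summarised with Python 3.11.15, numpy 2.4.6 and pandas 2.3.3.

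The members and the pathway and marker lists were chosen with earlier results of these data known. The 8 members are given with every library's value. Genes of the pathway lists are named where they were called and averaged 10 or more (TPM or CPM) in whichever genotype was higher, at most 3 per list and direction, in addition to GCG, INS and ALKBH5. HK2, PDE4D, SLC2A5, the genes called by edgeR alone, the called genes of the marker lists and the uncalled or weakly expressed hypoxia-induced genes were named after their values were seen. Alternatives covered pseudocount, filter, scaling, the replicate number as a block and each library left out in turn. The sequence of 1 SLC2A3 site is not reported here.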

Additional observations from a re-analysis of the deposited data

Results flagged for a closer look

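For 3 genes the A5-KO libraries differed from WT in opposite directions between the stages. SLC2A2 was lower in both A5-KO libraries of hILOs (log2 difference -0.48) and higher in both A5-KO libraries of PPs at 0 h (0.42). SLC2A3 was likewise lower in hILOs (-1.005) and higher in PPs at 0 h (0.51), and GIPR was higher in hILOs (0.41) and lower in PPs at 0 h (-0.65). The difference between the stages was not tested, because the TPM and CPM tables were normalised separately, and only the SLC2A3 difference in hILOs was called. In hILOs the GIPR difference was 0.087 without A5-KO replicate 1. Libraries of the genotypes did not overlap for 61.4% of all tested genes in hILOs and 49.8% in PPs at 0 h. How many of all genes differed in opposite directions between the stages was not counted.

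Within PPs a change of the genotype difference with time passed the test for 2 of the 6 members tested, each in 1 of 3 contrasts. For SLC2A3 it was 1.04 on the log2 scale from 0 h to 2 h (limma adjusted p = 0.0034), where both A5-KO libraries lay above both WT libraries at either time. For GIPR it was 1.19 from 0 h to 3 h (limma adjusted p = 0.0053), from both A5-KO libraries lying below WT to both lying above. These contrasts were added after the values were seen. From 0 h to 2 h 0.749% of all genes were called higher, and from 0 h to 3 h 0.72%. In the latter contrast 1918 genes were called lower and 98 higher, and with median-of-ratios scaling 1381 and 408.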

How the results depend on the processing

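Each group held 2 libraries, so single-gene values rest on 4 libraries a time and a missed threshold does not show equality, and the TPM carry no depth. Of the alternatives for single members, 282 kept direction and side of the threshold, 12 gained a call, 7 lost one and 8 changed sign. The cause was not tested where none is named.

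In hILOs, 2 members and 1174 of all genes were called. Without the filter on low values these were 1 and 330 (more genes tested), with median-of-ratios scaling 1 member, and with 1 library left out 1 member each time (SLC2A1) and 189 to 288 genes. There SLC30A8 ran from -0.28 to 0.15.

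In PPs at 0 h, 0 members and 375 genes were called. Without the filter 164 genes were called, DESeq2 called 1 member (GIPR, -0.80, adjusted p = 0.039), and with 1 library left out 0 to 1 members were called and GLP1R ran from -0.090 to 0.28. At 1 h (593 genes), leaving out 1 library gave 512 to 1170 genes, SLC2A1 from -0.042 to 0.17 and GIPR from -0.36 to 0.013. At 2 h (1 member, 179 genes), median-of-ratios scaling called 2 members and 348 genes with SLC30A8 at 0.0073, and edgeR 2 members and 334 genes with SLC30A8 at 0.0042. With 1 library left out at 2 h, 0 to 3 members and 31 to 2506 genes were called (2506 without WT replicate 1, 31 without A5-KO replicate 2), and SLC2A1 ran from -0.24 to 0.011. Median-of-ratios scaling moved the median of all genes at 2 h from -0.10 to -0.01. At 3 h (0 members, 2378 genes) that scaling and edgeR called 1 member each, GIPR, and leaving out 1 library gave 0 to 1 members and 1378 to 2988 genes. A lone library left in a group is assumed to vary like those of the other genotype.

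For the decay slope (0 members, 364 genes), a pseudocount of 1 gave 173 genes and median-of-ratios scaling 96. The times 0 and 1 h alone gave 54 genes, and 0 and 3 h alone 3028 with 1 member (GIPR, 0.44 per hour). With 1 library left out, 0 to 1 members and 0 to 1504 genes were called, the most without WT replicate 1 of 0 h. For the change of the genotype difference from 0 h, leaving out 1 library gave 10 to 42 genes at 1 h (30 with all), 45 to 1818 at 2 h (21 lower and 102 higher with all, 208 with median-of-ratios scaling, 1818 without WT replicate 1 of 2 h) and 745 to 2274 at 3 h. At 3 h the split was 1918 lower and 98 higher, and 1381 and 408 with median-of-ratios scaling.

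In the labels, same-numbered libraries of the genotypes have only the number in common. Their deviations from the group means correlated at 0.04 in hILOs. In PPs at 0, 1, 2 and 3 h the correlations were 0.30, -0.0020, -0.12 and -0.0075. The paper's reporting summary states that wells of a biological replicate came from the same batch of cells, so a shared batch is possible. With the replicate block, limma called 674 genes in hILOs, 631 in PPs at 0 h with 1 member (GIPR, -0.65, adjusted p = 0.0051), 628 at 2 h and 0 for the slope (GIPR 0.35 per hour, adjusted p = 0.14). The block changed no other call of a member.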
